A study of Drosophila melanogaster with 12 samples.

Results

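Polycomb group proteins keep developmental genes, the Hox genes among them, in a repressed state. PSC and PH are both subunits of Polycomb Repressive Complex 1 (PRC1), which in Drosophila is brought to DNA elements called Polycomb response elements (PREs) and can also be spread over the chromatin around them. The regions described here are the places where PSC binding, as called in cycling cells, extended furthest along the chromosome. They were chosen by length alone: the 250 longest of the 4796 peaks that PSC control replicate 1 had on the arms of chromosomes 2 and 3, on 4 and on X, out of 4830 peaks in the whole list.

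The data are 6 lists of ChIP-SEQ peaks from Drosophila S2 cells, an embryo-derived line. Mitotic cells had been treated with colchicine, which blocks spindle assembly, at 350 ng/ml (880 nM) for 15 h and sorted with an antibody to histone H3 phosphorylated on serine 10 (H3S10p), a mark of condensed mitotic chromosomes. Control cells were not treated and were sorted with an antibody to H3, so the drug and the sorting antibody differed together with the cell cycle state and cannot be told apart from it. PSC was precipitated from S2 cells with 2 replicates per condition. PH carried a biotin tag (BLRP) and was recovered on streptavidin from a stable S2 line that also held the biotin ligase BirA, both under the metallothionein promoter, with 1 sample per condition. The study describes the PSC control replicates as biological, and the labels do not say whether replicates came from separate cultures.

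The lists differed widely in size. PSC mitotic replicates 1 and 2 held 578 and 60 peaks and PH mitotic held 149, against 4830 and 3276 peaks in PSC control replicates 1 and 2 and 4629 in PH control. Each peak has a MACS score, read here as one that rises as the p-value of the peak falls, from its range and the caller named in the labels. The lowest score was 50 in PSC mitotic replicate 1 and in PSC control replicate 2, against 160.75 in PSC control replicate 1 and 165.56 in PH control, so the lists do not stop at a common threshold. The PH mitotic list, which the study describes as of lower quality, was kept at a looser cutoff than the other lists, without their filter on false discovery rate. The files hold no reads, and the study gives depth only as a range over all samples, so the depth of each list is unknown. A region without a peak is therefore one where none passed the threshold and not one shown to be unbound. The study also fragmented some DNA samples before library generation, without naming them in its methods. Any effect of this on peak width was not tested. With 2 lists against 2, an exact test of the conditions cannot go below p = 0.33, so the values below are descriptions. Some shares of regions are given with the 95% Clopper-Pearson interval of their count, which covers counting error only.

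The 250 regions ran from 4265 to 70123 bp, with a median of 5343.5 bp, and the other 4546 arm peaks from 882 to 4262 bp, with a median of 1668 bp. They were 5.21% of the arm peaks and held 17.2% of the summed peak length, 1806.42 of 10479.94 kb. Most were only a little longer than the limit, with 156 of them under 6 kb. At the other end, 24 were at least 10 kb long, 8 at least 20 kb and 6 at least 30 kb, and the 24 held 30.2% of the length of all 250. The 3 shortest were 4268, 4266 and 4265 bp long and the 3 peaks that followed were 4262, 4259 and 4256 bp long, so no step in length separates the regions from the rest of the list. The scores of those 6 peaks were 1134.73, 3100 and 1678.9 inside the limit and 2904.42, 2978.03 and 1159.72 outside it.

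The longest region lay at chr3L:3392431-3462553 (dm3) and the second at chr3L:603480-662077, 58598 bp long, both with a score of 3100. The third was chr2R:1607771-1650978, 43208 bp with a score of only 425.6, and the fourth chr3L:8667293-8708458, 41166 bp with a score of 392.77. The fifth was chrX:12612115-12648667, 36553 bp with a score of 3100, and the sixth chr3R:25587132-25620659, 33528 bp with a score of 2012.8. The other 4 of the 10 longest were chr2L:13065742-13087588 (21847 bp, score 2232.04), chr3R:25565289-25586395 (21107 bp, 530.46), chr3R:26589385-26609045 (19661 bp, 1977.01) and chr2R:1588409-1607693 (19285 bp, 1071.77). Thus the 10 longest regions spanned nearly the whole range of scores, from 392.77 to 3100.

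The regions were spread over all chromosomes but were thinnest on X. There were 55 on 2L (6.10% of its arm peaks), 52 on 2R (5.31%), 55 on 3L (5.62%), 66 on 3R (5.55%), 4 on chromosome 4 (7.84%) and 18 on X (2.59%, interval 1.54 to 4.06%). Of 123 windows of 1 Mb with a peak, 92 held at least 1 of the regions and 12 held 5 or more. The most in a window was 9. Long regions often had close neighbours: 82 of 250 (32.8%, interval 27.0 to 39.0%) had another peak of the same list within 1 kb, against 798 of the other 4546 arm peaks (17.6%, interval 16.5 to 18.7%). When peaks less than 2 kb apart were chained, 38 of the regions fell into 17 chains that held at least 2 of them.

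The largest chains were made of the longest regions. The longest region, a neighbour of 16843 bp among the 250 and a shorter peak outside them formed a chain on chr3L:3373425-3462553 that was 89.1 kb long with gaps of 126 to 398 bp, and peaks filled 99.4% of it. The sixth and the eighth longest regions sat in a chain of 4 on chr3R:25547321-25633956, which was 86.6 kb long and 95.9% filled. The third and the tenth longest were 77 bp apart on 2R in a chain of 66.6 kb. The fifth longest, on X, was followed after a gap of 200 bp by chrX:12648868-12656024, and with its other neighbours made a chain of 52.9 kb. When peaks within 500 bp of each other were joined before the choice, the 250 longest ran from 4554 to 89129 bp.

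The Hox clusters, which hold the best known PREs, had few peaks in the windows drawn here and none of the regions. Over the whole list 250 of 4796 arm peaks were regions, so a count of none among so few peaks does not set these clusters apart. The window drawn around the bithorax complex (BX-C), which holds Ubx, abd-A and Abd-B, had 14 peaks and the longest was 2127 bp. The window from Dfd to Antp in the Antennapedia complex had 11 peaks, the longest 2534 bp, and the window at engrailed, which encodes a segmentation factor, had 1 peak of 2911 bp. The window at Psc and Su(z)2, a neighbouring pair of genes that encode PSC and a related PRC1 protein, had 18 peaks, of which 1 was among the 250. It lay at chr2R:8755791-8760764, 4974 bp long with a score of 3100. No annotation of dm3 was used here, so the other regions are given by position and not by gene.

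**Figure D1:**
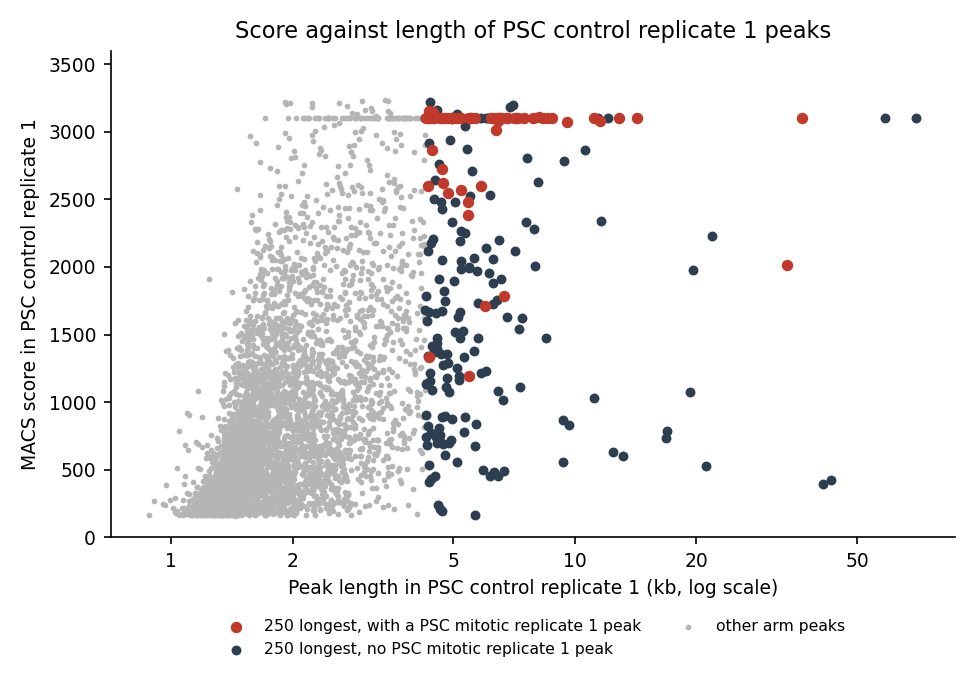
MACS score (y axis) against length in kb on a log axis (x axis) for each arm peak of PSC control replicate 1, with the 250 longest peaks in red where a PSC mitotic replicate 1 peak overlaps them (60) and in dark blue where none does (190), and the other 4546 peaks in grey. The 250 regions reach from 168.21 to 3217.38 in score, with a row of points at 3100, and the red points lie from 1192.35 to 3151.41.

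The regions, chosen for length, also had high scores, but within them length told little about score. The median score was 2275.53 (range 168.21 to 3217.38) in the regions, against 633.5 in the other arm peaks, and the score per kb was about the same, with medians of 366 and 353. Scores piled up at exactly 3100, a value that 81 of the regions shared. At least 3100 was reached by 91 of the regions (36.4%), against 92 of the other arm peaks (2.02%). Spearman's rho between score and length was 0.13 over the 250 regions and 0.09 over the 159 below 3100, against 0.62 over the other arm peaks, where all points share 1 library. Both sets were cut at the length limit and 81 regions were tied at 3100, so these values are not directly comparable. Low scores occurred at every length: 45 regions were under 1000 and 14 under 500. Among the 24 of at least 10 kb, 7 were under 1000 and 9 reached 3100.

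PH control saw nearly the same regions, mostly as a single peak with nearly the same length. Of the 250 regions, 241 (96.4%) were overlapped by a PH control peak, against 91.1% of all arm peaks, and 88.7% of their summed length was under PH control peaks, against 87.8% in the other arm peaks. A single PH control peak overlapped 214 of them. In these 214, the PH control peak was a median of 99.2% as long as the region, its start lay a median of 4.5 bp outside the region's start and its end a median of 0 bp from the region's end, and both edges were within 500 bp in 117 and within 100 bp in 28. The share of length covered was at least 90% in 178 of the 250.

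Division of a region by PH control was uncommon and the gaps were narrow. PH control had 2 peaks in 26 of the regions and 3 in 1, so 27 (10.8%) were divided, against 0.917% of all arm peaks, and the 28 gaps had a median of 192 bp (range 2 to 1295 bp). A long region has more room for 2 peaks, so the contrast with all arm peaks follows in part from the choice by length. The region with 3 PH control peaks was chr2L:2747981-2755865, where peaks of 3003, 2833 and 1904 bp covered 97.3% of 7885 bp. In the longest region the second PH control peak was 1 of the neighbouring chain that reached in by 30 bp, beside a peak of 69917 bp that covered the rest. The second longest region was covered by PH control peaks of 15567 and 42500 bp. In the opposite direction, 7 PH control peaks each spanned 2 or more of the regions.

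PSC control replicate 2 saw shorter and more broken stretches of the same regions. It overlapped 189 of the 250 (75.6%), against 62.9% of all arm peaks, and covered 39.6% of their summed length, against 43.8% in the other arm peaks. Where a single replicate 2 peak was present, in 127 regions, it was a median of 45.9% as long as the region. It started a median of 817 bp inside the region and ended a median of 562 bp inside it, and in only 11 were both edges within 500 bp. Replicate 2 peaks covered at least 90% of 17 of the regions. On regions chosen from PSC control replicate 1, replicate 2 thus differed more from replicate 1 in extent than PH control did. The choice favours long calls of replicate 1. Median scores were 104.65 in the replicate 2 list, 662.57 in replicate 1 and 753.51 in PH control. With the 250 longest replicate 2 peaks as the regions, replicate 1 covered 96.6% of their length and PH control 96.3%. The study describes the 2 PSC control profiles as in good agreement.

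Replicate 2 divided 62 of the regions (24.8%) into 2 or more peaks, 54 of them into 2 and 8 into 3, against 2.65% of all arm peaks. The regions were at least 4265 bp long and the other arm peaks had a median of 1668 bp. The contrast therefore follows in part from the choice by length, which leaves more room for 2 peaks. The 70 gaps had a median of 529 bp (range 45 to 3929 bp). In 53 regions replicate 2 had at least 2 peaks where PH control had 1, and 9 were divided by both lists. The count followed the threshold: with replicate 2 peaks kept only at scores of at least 100, 12% of the regions were divided, and at the lowest score of replicate 1 (160.75), 3.2%, with 27.6% and 18.7% of the length covered.

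The 5 longest of the regions that replicate 2 divided into 3 show the form this took. In chr3R:26622467-26635332, of 12866 bp, it had peaks of 2087, 2323 and 1519 bp with scores of 77.15, 326.43 and 190.2, under a single PH control peak of 17498 bp. In chr3L:3218284-3227084 its peaks were 1165, 1851 and 2404 bp and PH control had peaks of 2785 and 5107 bp. In chr2R:16881267-16888756 they were 757, 3142 and 1355 bp, and the middle one scored 532.35, against 82.19 and 144.12 for its neighbours. In chr3R:4877341-4884358 and chr2R:17587712-17594548 they covered 70.2% and 83.9% of the region under a single PH control peak. In these 5, replicate 2 had separate called peaks where PSC control replicate 1 had 1, and the signal between them is not in the files.

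Some of the longest regions were missing from replicate 2. It had a peak in 13 of the 24 regions of at least 10 kb and PH control in 23, and it covered 31.0% of their length, against 92.4% for PH control. Among the 10 longest, replicate 2 had a peak in 3. In the longest region that peak was 58325 bp long, with a score of only 74.81, in the fifth it was 39537 bp with a score of 1860.04, and in the ninth 8502 bp with a score of 70.71. Replicate 2 overlapped 189 of all 250 regions, against 3019 of 4796 arm peaks (62.9%). The higher share did not hold within deciles of the control score, where decile 1 is the highest. In deciles 3, 4 and 5 replicate 2 overlapped 13 of 24, 2 of 11 and 4 of 17 regions. It overlapped 86.4, 79.7 and 73.2% of the other peaks there. The regions had the lower share in each decile but the lowest, which held 3 regions (33.3 against 23.3%). Over all 250, 53 regions had a PH control peak and no replicate 2 peak and 8 had neither. The 5 longest of those 8 were chr3R:25547321-25564206 (16886 bp, score 782.69), chr2L:5023024-5030964 (7941 bp, 2283.5), chr2L:18561212-18567655 (6444 bp, 452.49), chr3L:9330736-9336061 (5326 bp, 780.39) and chr2R:10375043-10379804 (4762 bp, 607.06). None of these 5 had a mitotic peak either, so they rest on 1 list.

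**Figure D2:**
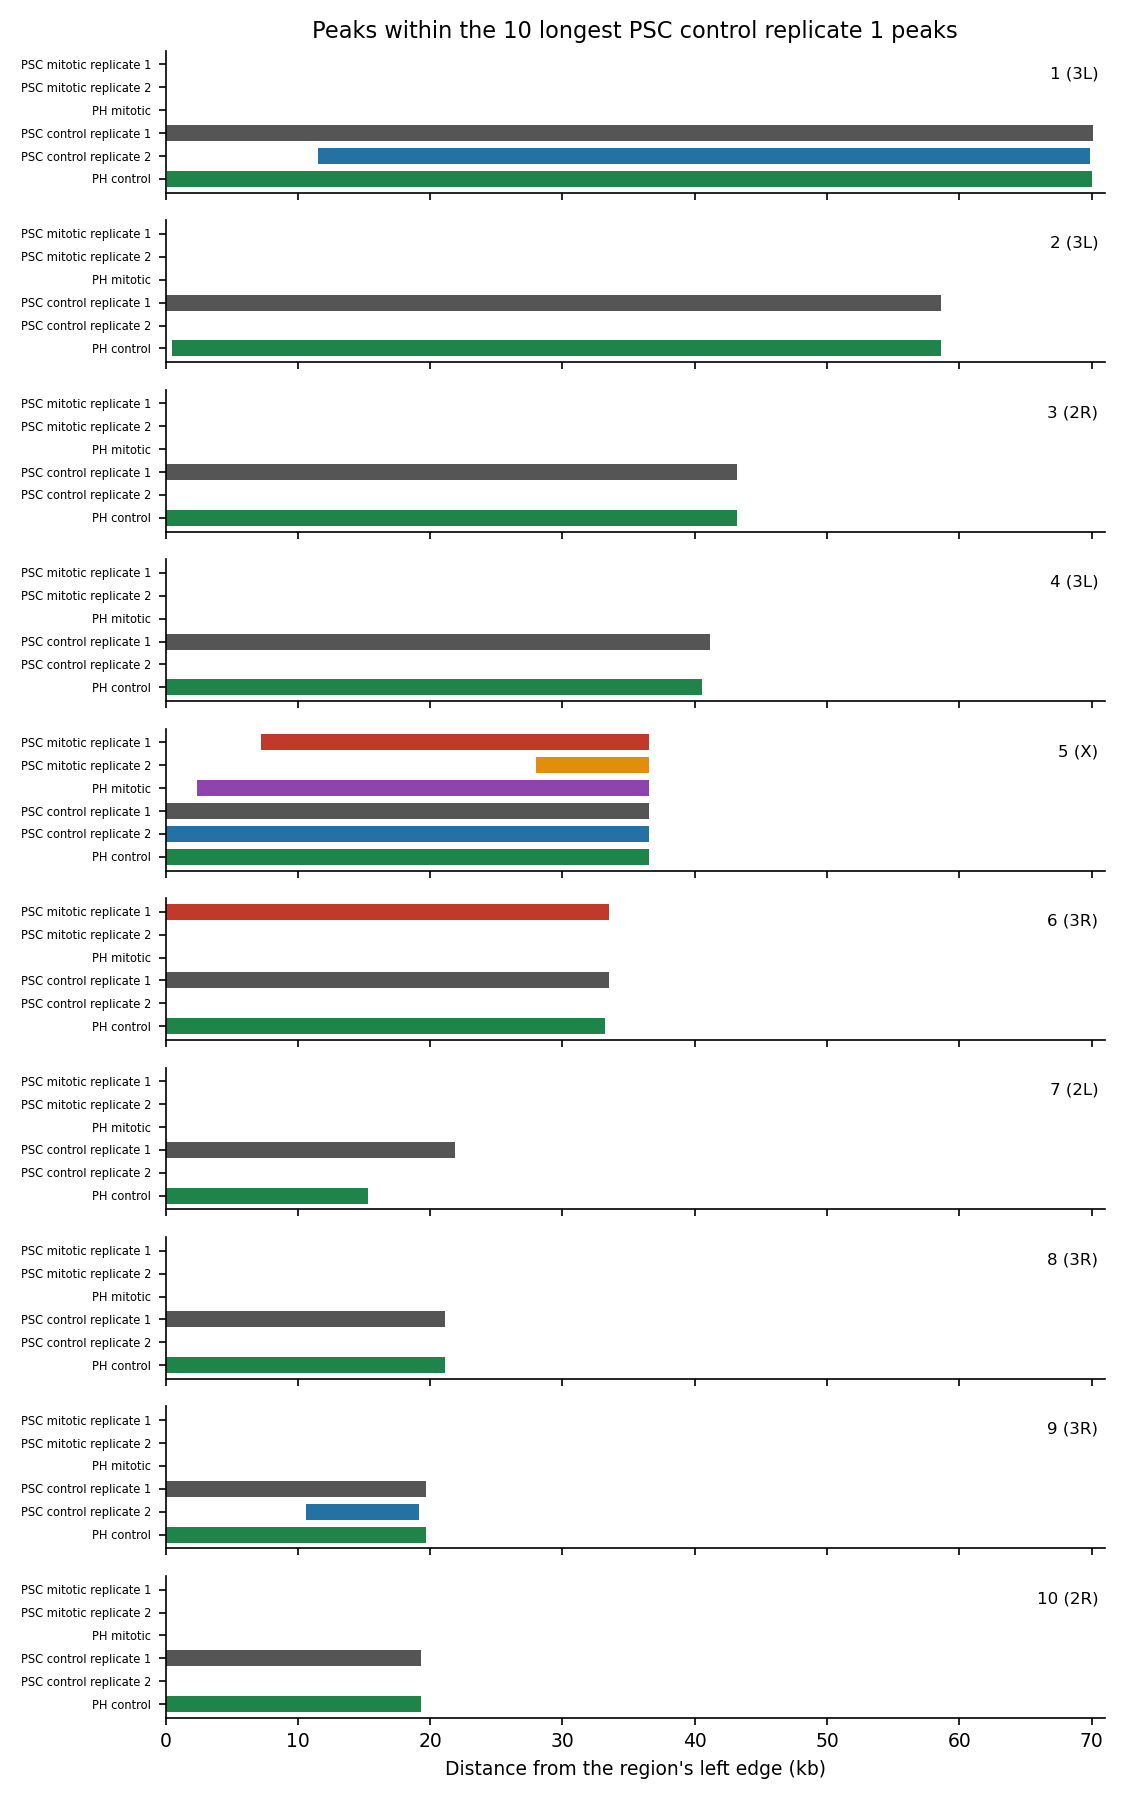
Extent of the peaks of each list (rows) within the 10 longest regions, one panel each with its rank and chromosome, as distance in kb from the region's left edge (x axis), clipped to the region, with mitotic lists above control lists. PH control fills nearly all of 9 of the 10, PSC control replicate 2 has a peak in 3, and mitotic peaks are present only in ranks 5 (X) and 6 (3R).

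In mitotic cells 24.0% of the regions carried a PSC peak in replicate 1, but far less of their length did. PSC mitotic replicate 1 overlapped 60 of the 250 regions (24.0%, interval 18.8 to 29.8%), against 11.6% of all arm peaks and 10.9% of the others. PSC mitotic replicate 2, a list of 60 peaks, overlapped 4 (1.6%), against 1.11% of all arm peaks. PH mitotic overlapped 21 (8.4%, interval 5.27 to 12.6%), against 3.04% of all arm peaks and 2.75% of the others. The share of summed length under mitotic peaks was 10.9% for PSC replicate 1, 0.674% for PSC replicate 2 and 4.52% for PH, against 7.54%, 0.594% and 1.76% in the other arm peaks. For PSC, the gap between mitotic replicates 1 and 2 was larger than the difference between the regions and the other peaks in replicate 1.

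The 24.0% was the same when the overlap had to be at least 500 bp or at least 50% of the shorter peak. It was 15.6% when mitotic peaks were kept only at scores of at least 100 and 9.6% at 160.75 or more, where 6.66% and 4.56% of the length was covered. The length covered rested in part on the extremes. The fifth and sixth longest regions held 31.9% of all the length that PSC mitotic replicate 1 covered, and without them the share of length was 7.74%, close to the 7.54% of the other arm peaks. For PH mitotic the fifth longest alone held 41.9%, and without it the share was 2.68%.

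**Figure D3:**
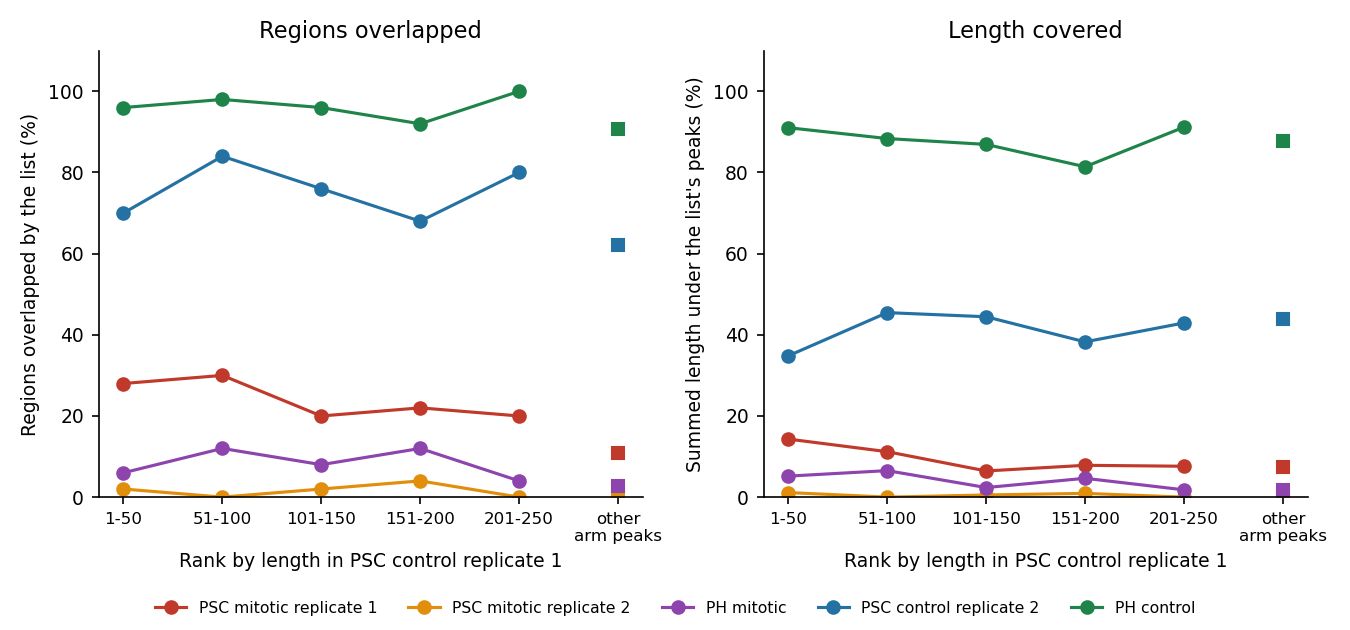
Percent of regions overlapped (left) and percent of summed length covered (right) by each list's peaks (y axes) for 5 groups of 50 regions by length rank and for the other 4546 arm peaks (squares, x axis). PSC mitotic replicate 1 overlaps 20 to 30% of each group and 10.9% of the other peaks, and PSC control replicate 2 covers 34.8% of the length of the 50 longest.

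Regions with a mitotic PSC peak had higher control scores than those without, and similar lengths. The choice by length narrowed the range of length and not that of score, so the contrasts cannot be weighed against each other. Over all arm peaks, overlap by PSC mitotic replicate 1 fell from 23.1% in the longest decile to 2.09% in the shortest. The 60 regions with a PSC mitotic replicate 1 peak had control scores of 1192.35 to 3151.41 with a median of 3100, against a median of 1854.17 (168.21 to 3217.38) in the 190 without. Their lengths overlapped almost wholly, with medians of 5606.5 and 5224.5 bp. By length rank the overlap was 28% in the 50 longest and then 30, 20, 22 and 20% in the next groups of 50. All 60 had a PH control peak and 56 had a PSC control replicate 2 peak, against 181 and 133 of the 190. Of the 496 other arm peaks with a PSC mitotic replicate 1 peak, 495 and 453 had these, so this was not particular to the regions.

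When peaks were set side by side by class of score, the long regions were overlapped less often than the shorter peaks in each class given. The classes match the score only roughly. At scores of at least 3100, PSC mitotic replicate 1 overlapped 42 of 91 regions (46.2%) and 62 of 92 other peaks (67.4%). In the highest decile of the scores (2038.95 and above) it overlapped 55 of 139 regions (39.6%, interval 31.4 to 48.2%) and 165 of 341 other peaks (48.4%, interval 43.0 to 53.8%). This decile includes the class of at least 3100, with 91 of its 139 regions and 92 of its 341 other peaks, so scores were not matched within it. In decile 2 these were 3 of 38 regions (7.89%, interval 1.66 to 21.4%) and 149 of 442 other peaks (33.7%, interval 29.3 to 38.3%). Below that, 2 of 24 regions and 77 of 455 other peaks were overlapped in decile 3, and 0 of 11 and 44 of 469 in decile 4, where the region counts are too small to place. The score is itself read from PSC control replicate 1, and these shares carry no test, since all peaks come from 1 library.

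**Figure D4:**
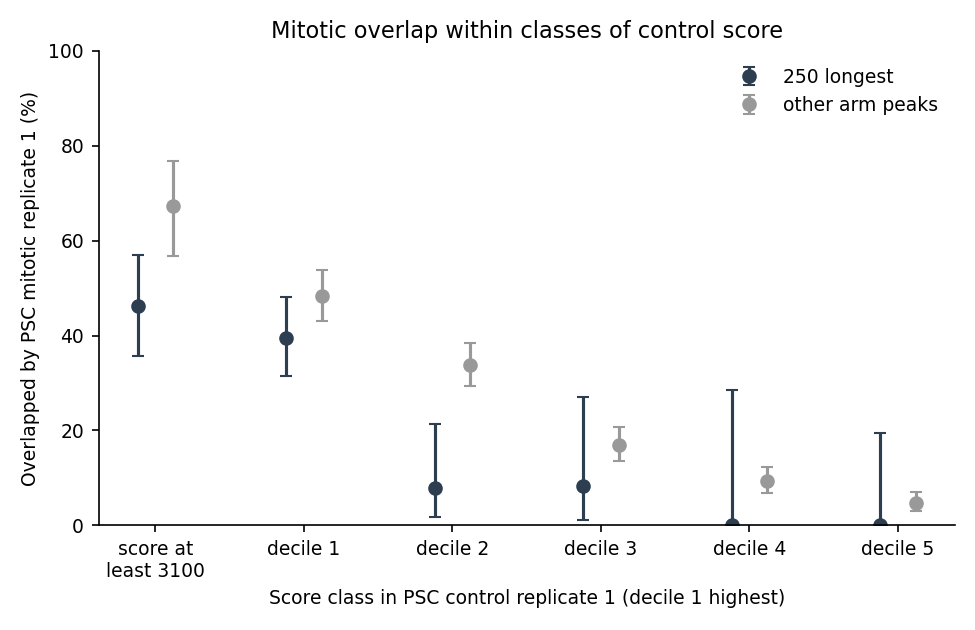
Percent of the 250 longest peaks (dark) and of the other arm peaks (grey) overlapped by PSC mitotic replicate 1 (y axis) at scores of at least 3100 and in each of the 5 highest deciles of the control score (x axis), with 95% Clopper-Pearson intervals. The long regions lie below the other peaks in every class shown, from 46.2% against 67.4% at 3100, with overlapping intervals in each class except decile 2.

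Most mitotic PSC peaks in the regions were much shorter than the region, which was chosen for its length. PSC mitotic replicate 1 had 1 peak in 55 of the 60 regions and 2 in 5, and 61 of these 65 placements lay wholly within the region. The peaks had a median length of 1605 bp (957 to 39716 bp) and covered a median of 31.3% of their region (12.5 to 100%). PH mitotic peaks were alike, with 22 of 23 wholly within a region and a median cover of 34.1% in 21 regions. Over the 60 regions together, PSC mitotic replicate 1 covered 45.4% of the length, PSC control replicate 2 57.3% and PH control 94.2%.

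The position of the mitotic peaks along the regions varied. Each region was cut into 20 bins of 5% of its length. Over the 60 regions PSC mitotic replicate 1 covered 10.1% of the first bin and 12.7% of the last, against 43.4% of the bin just right of the centre, and PSC control replicate 2 covered 20.4%, 23.3% and 70.2% of the same bins. The highest cover by PSC mitotic replicate 1 was off the centre, with 50.5% in the bin from 35 to 40% and 49.9% in that from 70 to 75%. An interval that lies wholly inside a region and covers a part of it reaches the end bins less often than the centre wherever it is placed, so these values show no avoidance of the edges. With the regions cut into 3 equal parts, the mitotic PSC length was shared as 28.9% in the left, 39.0% in the middle and 32.1% in the right part. The midpoint of the mitotic peak was in the middle part for 25 of 65 placements (38.5%, interval 26.7 to 51.4%), in the left for 17 and in the right for 23. PH mitotic peaks had their midpoint in the middle part in 15 of 23 (65.2%, interval 42.7 to 83.6%), in the left in 2 and in the right in 6. The same limit holds for the 3 parts, because a peak wholly within a region cannot have its midpoint near an edge. A larger share in the middle part therefore shows no preference for the centre.

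**Figure D5:**
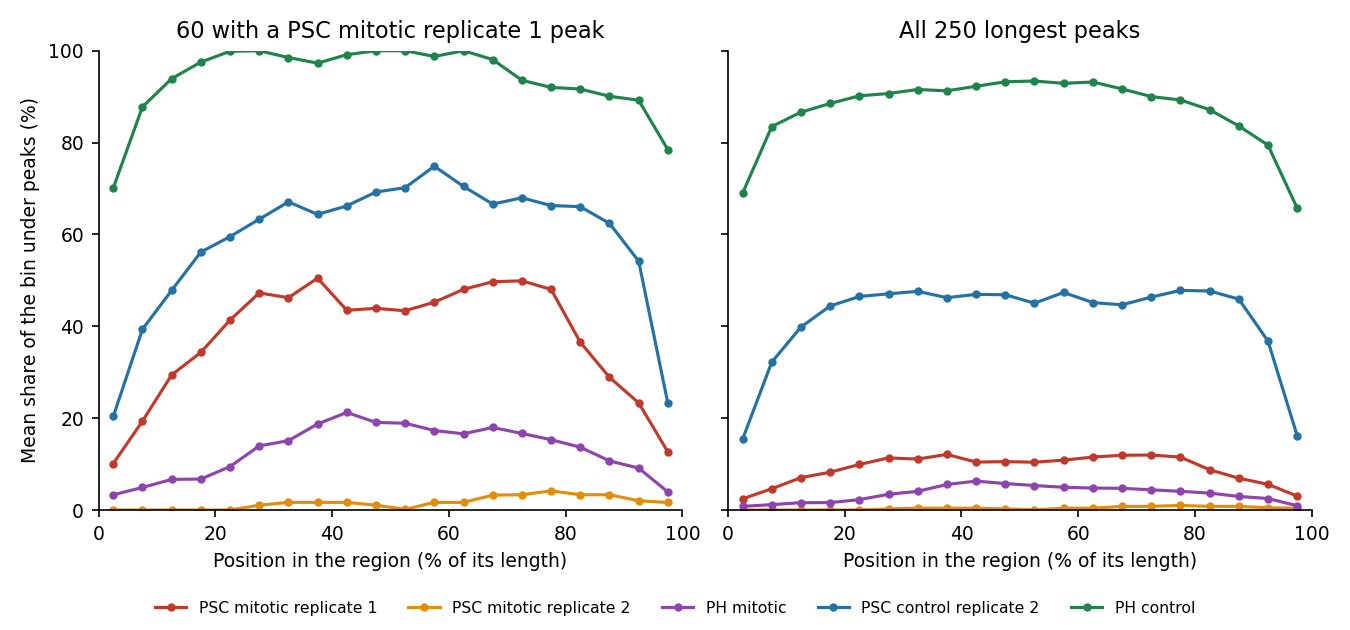
Mean share of each bin of 5% of a region's length under peaks (y axis) along the region from its left to its right edge (x axis) for the 60 regions with a PSC mitotic replicate 1 peak (left) and for all 250 (right), by list. In the left panel PSC mitotic replicate 1 covers 10.1% of the first bin, 43.4% just right of the centre and at most 50.5%, in the bin from 35 to 40%. PH control is at 100% at the centre.

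The short mitotic peaks lay mostly on what PSC control replicate 2 also called. Of the length of the regions under PSC mitotic replicate 1, 72.0% was also under PSC control replicate 2 and 98.5% under PH control. In the 58 regions under 30 kb it was 83.8% under PSC control replicate 2, which covered 58.3% of the length of those regions. In the 23 regions where replicate 2 had 2 or more peaks, the mitotic peak overlapped the highest scoring of them in 21, and in 17 it overlapped only 1 of them. The exceptions include chr2R:16881267-16888756, where the mitotic peak of 1409 bp (score 77.59) touched the left replicate 2 peak, with a score of 82.19, and not the middle one, with 532.35. At the Psc and Su(z)2 region the mitotic peak was 1567 bp long (score 171.16) and lay on the left and stronger of 2 replicate 2 peaks, whose scores were 91.61 and 63.92. PH control also had 2 peaks there, scoring 3100 and 374.4, and PSC mitotic replicate 2 and PH mitotic had none.

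PSC and PH overlapped in their mitotic positions. Both PSC mitotic replicate 1 and PH mitotic had a peak in 18 of the regions, and 3 more had PH mitotic without PSC mitotic replicate 1. This was not particular to the regions: of the 125 other arm peaks with a PH mitotic peak, 119 also had a PSC mitotic replicate 1 peak. For 20 PH mitotic peaks with a PSC mitotic replicate 1 peak in the same region, the midpoints were a median of 462 bp apart (34 to 2394.5 bp). Of the length under PH mitotic peaks, 76.5% was under PSC mitotic replicate 1 peaks, and 31.6% the other way. Without the fifth longest region, on X, these shares were 69.7% and 19.7%. Of all 250 regions, 187 were in none of the mitotic lists, 45 in 1, 14 in 2 and 4 in all 3. The same division is not given here for all 4796 arm peaks. PSC mitotic replicates 1 and 2 and PH mitotic overlapped 11.6, 1.11 and 3.04% of those.

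The 4 regions in all 3 mitotic lists all scored 3100 in PSC control replicate 1. In chr2L:16283678-16289220, of 5543 bp, the peaks of PSC mitotic replicates 1 and 2 and PH mitotic were 1900, 1429 and 1891 bp long and lay in the right part, at midpoints of 76.5, 78.2 and 79.1% of the region's length, while PSC control replicate 2 covered 92.4% of it and PH control 99.6%. In chr3R:26884076-26888770, of 4695 bp, they were 1453, 1151 and 1460 bp long with midpoints at 65.5, 66.8 and 67.0%. In chr3R:27043626-27048575, of 4950 bp, they were 2983, 1055 and 2191 bp long with midpoints at 49.3, 37.5 and 45.8%. The PSC mitotic replicate 1 peak there scored 3044.82, the highest score of that list. In each of these 3 regions the 3 mitotic peaks overlapped at one place and left part of the region without a mitotic peak.

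The fourth, the 36553-bp region on X, was different in form. PSC mitotic replicate 1 had a peak of 29364 bp (score 363.84), PSC mitotic replicate 2 one of 8544 bp (191.07) and PH mitotic one of 34183 bp (329.11), against 39537 bp (1860.04) in PSC control replicate 2 and 42908 bp (3100) in PH control. The mitotic peaks covered 80.3, 23.4 and 93.5% of the region. All 5 ended within 23 bp of the region's right edge, while their left edges lay from 6354 bp outside it (PH control) to 27986 bp inside it (PSC mitotic replicate 2). The next region, chrX:12648868-12656024, began 200 bp further on, and there PSC mitotic replicate 1, PH mitotic and PH control each began within 3 bp of its left edge. PSC mitotic replicate 1 covered 64.3% of it and PH mitotic 75.9%, and PSC control replicate 2 had no peak in it.

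The sixth longest region, on 3R, was covered whole by a PSC mitotic replicate 1 peak, at chr3R:25587127-25626842, of 39716 bp, the longest of that list. Its score was 57.2, where the list begins at 50, and it began 5 bp before the region. It also reached into chr3R:25622386-25633956, where it and a second peak of 10909 bp (score 56.89) together covered 89.2%. Neither PSC mitotic replicate 2, PH mitotic nor PSC control replicate 2 had a peak in the sixth longest region, while PH control had one of 33188 bp (2559.36). The remaining regions with the largest cover were chr2R:6449869-6461026 (64.8%, mitotic score 314.16) and chr3R:8836002-8850233 (62.6%, 150.94). In both of these PSC control replicate 2 covered more of the region than the mitotic peak did, 70.2% and 74.8%.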

How the data were processed

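Peaks were analysed as deposited: 6 BED lists of position and score, called by the authors for each sample. According to the submitters' notes and the study's methods, reads were aligned to dm3 with Bowtie 1.1.2 and peaks were called with MACS 1.0.1 at a p-value cutoff of 1e-05, then filtered on false discovery rate except for PH mitotic. The deposited score was taken as the caller's −10 log10 p from its values and the caller's name, and its meaning is not stated in the files. Use of input is not given in the sources used here. Positions are 1-based. Python 3.11.15 with pandas 2.3.3 and scipy 1.17.1 ranked peaks by length, counted overlaps of at least 1 bp, summed covered bases and took 95% Clopper-Pearson intervals. Overlap counts were checked with bedtools 2.31.1, and the functions were tested on simulated intervals. Named regions were the 10 longest, those at the length limit, those with the largest mitotic cover, in all 3 mitotic lists, with the most control peaks or with none, and those in the drawn loci, whose windows were read to the nearest 10 kb. Regions and lists were chosen with earlier results of these data known. Alternatives changed the number of regions, score threshold, overlap rule, joining of peaks, chromosomes and lists.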

Additional observations from a re-analysis of the deposited data

How the results depend on the processing

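The mitotic shares depended most on the list used. With PSC mitotic replicate 2 in place of replicate 1, or with the 250 longest peaks of PSC control replicate 2 as the regions, the share of regions overlapped ranged from 1.6 to 28.8%, the share of length covered from 0.674 to 18.6% and the share of mitotic length in the middle part from 11.3 to 42.5%. With the replicate 2 regions, 2.4% were divided by PSC control replicate 1, 1.6% by PH control, and 96.6 and 96.3% of their length was under those lists. Division by PSC control replicate 2 and by PH control was 31.0 and 18.0% in the 100 longest, 19.2 and 7.2% in the 500 longest, and 34.4 and 31.2% when peaks within 500 bp were joined first. At scores of at least 100 and 160.75, replicate 2 divided 12 and 3.2% and covered 27.6 and 18.7%. The cause of these shifts was not tested. No other alternative moved a control share out of its interval or a mitotic share by more than the SD of the mitotic replicates, a wide allowance that also holds the threshold effects given above. For control shares of length, which have no count, the interval was computed as if they were shares of the 250 regions. It is only a rough allowance there. Leaving out regions of at least 10 kb, chosen after seeing the data like the settings without the fifth or the sixth longest region, gave 23.9% overlapped and 8.30% of length covered by PSC mitotic replicate 1. No paired analysis was possible because the results come from no test, so that there is no fit to which a replicate block could be added.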

Other observations

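Which regions were the widest differed between the control lists. The 250 longest peaks of PSC control replicate 2 ran from 2243 to 58325 bp with a median of 2733 bp. Of the 250 regions, 105 (42.0%) were overlapped by one of these, and 107 of these 250 (42.8%) overlapped a region. The 250 longest PH control peaks ran from 4114 to 69917 bp with a median of 5220.5 bp. They overlapped 193 of the regions (77.2%), and 188 of them (75.2%) overlapped a region. The shares of all 4796 arm peaks overlapped by these longest peaks are not given here, so the values for the regions have no base beside them.

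Edges were shared with PH control far more often than with the other lists. Of the 500 edges of the regions, a PH control edge lay within 50 bp of 107, a PSC control replicate 2 edge of 14 and a PSC mitotic replicate 1 edge of 5. These lists had a peak in 241, 189 and 60 of the regions, so they offered unlike numbers of edges. The same counts were not taken over the other arm peaks, so whether edge sharing is particular to the regions is not known. The right edge of the 36553-bp region on X was the only one within 50 bp of an edge in all 5 other lists.

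Across regions, Spearman's rho between the score in PSC control replicate 1 and the highest score of another list in the same region was 0.82 for PH control (241 regions), 0.47 for PSC control replicate 2 (189 regions) and 0.30 for PSC mitotic replicate 1 (60 regions). The regions of a list share 1 library, and scores of 3100 recur in PSC control replicate 1 and in PH control.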
